A study of Mus musculus with 4 samples.

Results

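The genes of antigen presentation were followed in white fat of the epididymal pad, which lies beside the epididymis, from mice labelled Nck2 knockout (KO, Nck2-/-) and wild type (WT, Nck2+/+). The set holds every gene whose symbol starts with H2-, the mark of the mouse major histocompatibility complex (MHC), together with Cd74, Ciita, B2m, Tap1, Tap2, Tapbp and Nlrc5. These are 51 of the 39179 genes in the deposited table, and the 36 with a mean of 10 or more normalized counts (reads divided by a size factor of the library) were tested. Polyadenylated RNA was sequenced in 2 KO and 2 WT libraries with 31831904 to 37980391 reads assigned to genes, and all 4 libraries come from mice of mixed genetic background. The tissue is one of males, and the sources used here do not give the age or the altered part of Nck2. The labels do not say that the libraries of a genotype came from separate animals, so p-values measure only the spread between these samples, which may be technical. Nck2, an adaptor protein of receptor tyrosine kinase signalling, was at 1076 and 947 normalized counts in KO and at 1279 and 1667 in WT (limma adjusted p = 0.0509), a total over the gene that cannot check the genotype labels.

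MHC class I molecules display peptides from inside the cell to CD8 T cells. Each pairs a heavy chain with beta-2 microglobulin, the product of B2m, and is filled with peptides that the Tap1 and Tap2 transporter pumps into the endoplasmic reticulum while tapasin, from Tapbp, holds the empty molecule. Class II molecules display peptides from endosomes to CD4 T cells and are made mainly by macrophages, dendritic cells and B cells. They travel with the invariant chain, from Cd74, and exchange its remnant for peptide with the help of the DM molecule, which the DO molecule restrains. Ciita and Nlrc5 are the transcriptional activators of the class II and class I genes.

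Promoters of 5 members are printed because they show the letters that MHC promoters share, in genes whose values are described below. Each is the RefSeq entry (GRCm38.p6) from 250 bases before to 50 bases after the gene's start, 5′ to 3′ on the gene's strand. Capitals mark letters that match the Y box CTGATTGG or the NF-kB site of class I promoters (GGGG, ATT and CCCC in a row). They also mark matches to the interferon response core (GAAA, any 2 bases and GAAA), and each was searched on either strand.
H2-Aa, class II alpha chain, chr17:34287774-34288073, minus strand: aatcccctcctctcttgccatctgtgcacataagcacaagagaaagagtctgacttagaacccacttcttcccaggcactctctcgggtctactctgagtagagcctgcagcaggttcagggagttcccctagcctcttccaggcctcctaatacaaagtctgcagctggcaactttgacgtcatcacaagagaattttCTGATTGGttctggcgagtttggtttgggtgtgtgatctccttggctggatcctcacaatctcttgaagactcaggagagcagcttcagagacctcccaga
H2-Eb1, class II beta chain, chr17:34305617-34305916, plus strand: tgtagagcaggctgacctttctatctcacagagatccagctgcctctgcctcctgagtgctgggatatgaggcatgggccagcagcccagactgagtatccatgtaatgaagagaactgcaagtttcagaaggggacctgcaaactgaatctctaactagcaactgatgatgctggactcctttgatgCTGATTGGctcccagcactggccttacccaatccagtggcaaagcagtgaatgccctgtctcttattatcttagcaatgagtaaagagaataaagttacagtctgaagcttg
H2-K1, class I heavy chain, chr17:34000284-34000583, minus strand: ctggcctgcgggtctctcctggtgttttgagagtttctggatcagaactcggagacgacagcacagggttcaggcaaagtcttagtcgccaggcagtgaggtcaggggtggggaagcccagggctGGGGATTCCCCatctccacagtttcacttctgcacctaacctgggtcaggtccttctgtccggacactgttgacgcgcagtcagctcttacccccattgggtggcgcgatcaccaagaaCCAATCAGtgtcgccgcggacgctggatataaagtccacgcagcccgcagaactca
H2-D1, class I heavy chain, chr17:35262844-35263143, plus strand: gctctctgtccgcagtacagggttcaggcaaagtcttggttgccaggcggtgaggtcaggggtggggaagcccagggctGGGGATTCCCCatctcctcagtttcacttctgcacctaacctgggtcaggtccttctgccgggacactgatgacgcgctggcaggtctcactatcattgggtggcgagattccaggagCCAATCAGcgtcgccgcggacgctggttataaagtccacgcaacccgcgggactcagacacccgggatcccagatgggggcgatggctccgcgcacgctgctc
H2-T23, non-classical class I heavy chain, chr17:36032652-36032951, minus strand: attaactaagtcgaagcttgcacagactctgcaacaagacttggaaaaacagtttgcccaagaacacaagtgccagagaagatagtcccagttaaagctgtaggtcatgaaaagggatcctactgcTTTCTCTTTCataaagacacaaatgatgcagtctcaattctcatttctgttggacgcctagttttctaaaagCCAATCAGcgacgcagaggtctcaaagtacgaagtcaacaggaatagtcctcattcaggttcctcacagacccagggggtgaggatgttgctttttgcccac

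The promoter table held 37 entries for 34 of the 51 members. The letters of the Y box, on either strand, were in 20 of these 37, against 4.10% of all 32851 promoters of the same length. Its core CCAAT, which every Y box contains, was in 33 of 37, against 37.4% of all. In H2-Aa and H2-Eb1 the match to CTGATTGG was read on the gene's own strand, at -51 and -62 from the start. In H2-K1, H2-D1 and H2-T23 it was read on the opposite strand, at -6, -53 and -52. H2-K1 and H2-D1 also held ATTGG, the core as it runs in the Y box of H2-Aa, at -30 and -76. Which of these matches acts as the Y box was not tested. The NF-kB site was in 10 promoters of the whole table, 0.0304%, and 4 of these were entries of H2-D1, H2-Q6 and, with 2 overlapping entries, H2-K1. The interferon response core was in 3 member entries (B2m, H2-T22 and H2-T23), against 3.44% of all promoters. TGACGCA, a form of the X2 box of class II promoters, was in 0 of 37, against 2.12%. For every motif only the exact letters given were searched. The counts cannot show whether other forms of a box or of the interferon element are present. The H2-Aa promoter above holds tgacgtca, which the X2 search does not match. Those of H2-K1 and H2-D1 hold tttcacttct, which the interferon search does not match. All counts here are of matching letters, searched on both strands, and not of measured sites of binding.

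A further set of sequences shows how alike the class I genes are, since reads of 50 bases had to be told apart by gene. The coding sequences of H2-D1 and H2-K1 in the GENCODE M21 transcripts (GRCm38) were 91.5% identical over 1077 aligned bases, and those of H2-D1 and H2-Q7 89.8% over 993. The first line below is a stretch of the H2-D1 coding sequence that occurs letter for letter in transcripts of 15 other genes, among them H2-K1, H2-Q1, H2-Q2, H2-Q10, H2-T22, H2-T23 and H2-T24. The other lines are the least alike gap-free stretch of the same length in H2-D1 and H2-K1, with their 14 differing bases in capitals. Positions count from the first base of the start codon.
H2-D1, coding bases 682 to 731: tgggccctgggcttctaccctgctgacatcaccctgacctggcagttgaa
H2-D1, coding bases 493 to 542: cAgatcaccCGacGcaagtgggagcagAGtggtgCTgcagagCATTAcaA
H2-K1, coding bases 484 to 533: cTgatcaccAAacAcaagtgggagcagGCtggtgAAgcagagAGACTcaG

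Of all 50-base windows in a gene's transcripts, the share found also in another gene was 12.8% for H2-D1, 9.63% for H2-K1, 26.5% for H2-Q7 and 36.4% for H2-Q4. It reached 53.5% for H2-T22 and 50.4% for H2-T10, and it was 0.51% for H2-Aa and 0 for H2-Ab1, H2-Eb1, H2-Ea-ps, B2m and Cd74. The sources used here do not say how reads with several matches were counted. The split of reads among the class I heavy chain genes is therefore uncertain. So is that between H2-DMb1 and H2-DMb2, where 22.7% of H2-DMb1 windows were found in H2-DMb2 and 21.2% of H2-DMb2 windows in H2-DMb1.

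Markers of the tissue itself differed between the genotypes. Of 10 adipocyte markers 9 were higher in KO, with summed levels of 1452647 and 1733829 normalized counts in KO and 554138 and 367622 in WT. Of 10 tested markers of the epididymis and vas deferens 9 were lower in KO. The sums of all 12 listed were 499 and 373 in KO and 1208468 and 1507349 in WT. Wfdc8 and Lcn5, named because they were at 0 in both KO libraries, were chosen after their values were seen, and Bsph1 was at 0 in all 4. Smooth muscle markers (8 of 8 lower) had sums of 14411 and 17206 in KO and 429267 and 564008 in WT. Epithelial markers (8 of 8 lower) had sums of 3800.3 and 661 in KO and 28092 and 34613 in WT, so that the KO libraries were apart from each other as well. The part of these marker differences in the results below was not tested. In bulk tissue, fewer cells of a type and less RNA per cell cannot be told apart.

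Most class II genes, their chaperone and their transactivator were higher in KO, whereas the classical class I heavy chains were not called. Of the 36 tested members, 17 were called higher at a Benjamini-Hochberg adjusted p under 0.05 in limma, where 22.4% of all 16710 genes tested were called higher. No member was called lower (0 in limma, 0 in edgeR and 0 in DESeq2, with 1 at an unadjusted limma p under 0.05), where 24.4% of all genes were. Both KO libraries lay above both WT libraries in 25 members, as in 38.9% of all genes, and below them in 2, as in 40.6% of all genes. The median log2 fold change of KO over WT was 0.76 over the tested members and -0.01 over all genes tested. Of the 39 members with an adjusted p in the authors' deposited table, 20 were higher and 0 lower, against 18.8% and 21.7% of all genes in it. On recovered reads, the quasi-likelihood test of edgeR called 15 members higher and 21% of all genes.

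The number of calls depended on the libraries in the fit. Members called higher numbered 9 without WT replicate 1 (7.21% of all genes), 2 without WT replicate 2 (3.14%), 13 without KO replicate 1 (17%) and 17 without KO replicate 2 (14.3%, 12 of them among the first 17). In such fits the lone library of a genotype is assumed to vary like the other genotype's pair. The log2 fold changes of the 17 members stayed above 0 in each of the 14 alternatives run. With 1 library left out this could not come out otherwise, since both KO libraries lay above both WT libraries in each of the 17. The other alternatives refitted the same libraries.

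**Figure D1:**
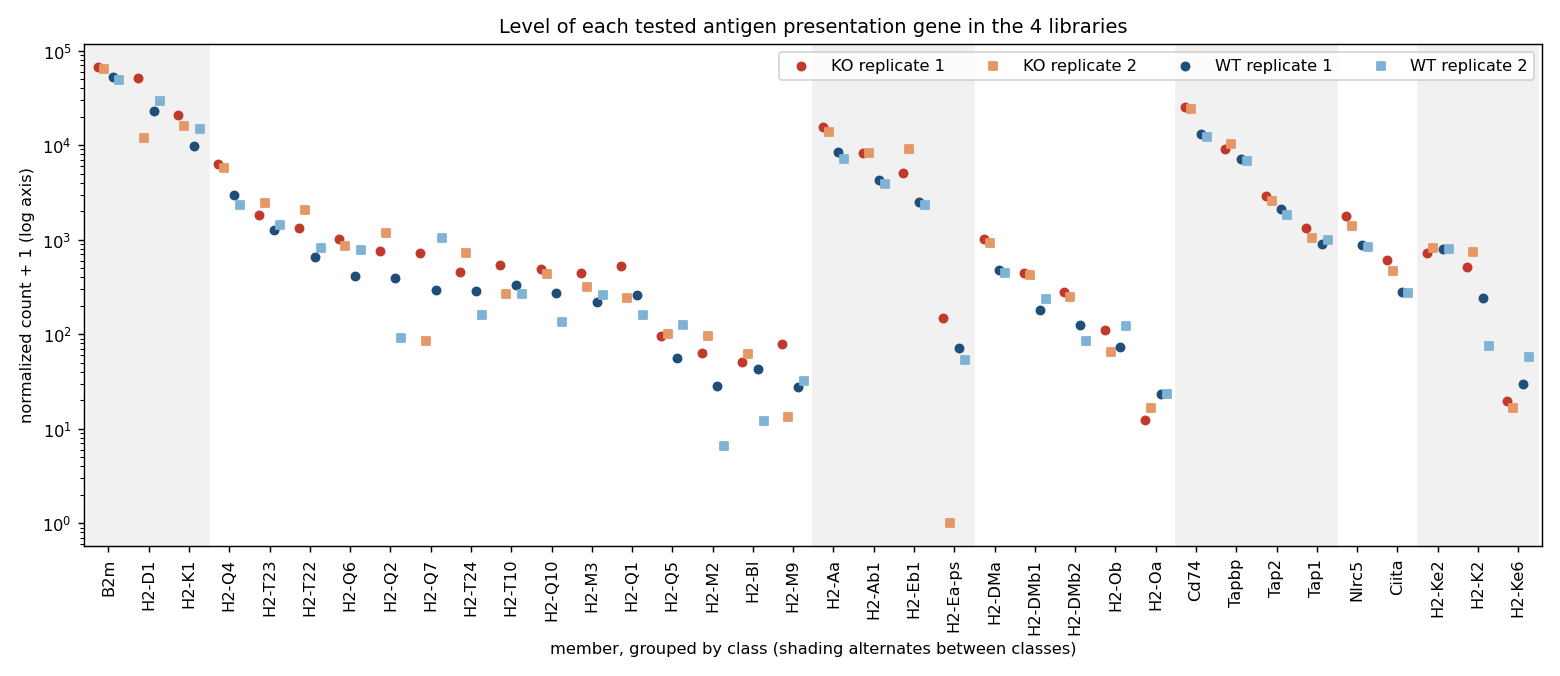
Normalized count plus 1 (log axis) of each of the 36 tested members in KO replicates 1 and 2 (red circle, orange square) and WT replicates 1 and 2 (dark blue circle, light blue square), with shading that alternates between classes. H2-Aa, H2-Ab1 and Cd74 show both KO points together above both WT points, whereas H2-D1, H2-Q7, H2-M9 and H2-Ea-ps have KO replicate 2 below the other 3 libraries.

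The classical class II genes encode the I-A molecule (H2-Aa and H2-Ab1) and the beta chain of the I-E molecule (H2-Eb1), and these 3 genes rose. H2-Ab1 was at 8251 and 8208 normalized counts in KO and at 4230.3 and 3842 in WT, a log2 fold change of 1.03 (SE 0.08, adjusted p = 0.00172). The libraries of each genotype were close together and the genotypes did not overlap. H2-Aa was at 15541 and 13849.6 in KO and at 8432 and 7141 in WT, a log2 fold change of 0.92 (SE 0.12, adjusted p = 0.00611), and its call was lost without WT replicate 2 (adjusted p = 0.0736, the highest of the 14 alternatives). H2-Eb1 was at 5055 and 9048 in KO and at 2519 and 2314 in WT. Its KO libraries, 1.79-fold apart, both lay above WT, and the log2 fold change was 1.49 (SE 0.29, adjusted p = 0.0177). It was 1.07 without KO replicate 2 and 1.91 without KO replicate 1, and the call was lost without WT replicate 1 (adjusted p = 0.145) and without WT replicate 2 (adjusted p = 0.177, the highest of the 14).

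H2-Ea-ps separated the libraries of one genotype. It is the gene of the I-E alpha chain, listed as a polymorphic pseudogene because the reference strain C57BL/6J carries a deletion that stops its transcription, while strains of several other H2 haplotypes make the transcript. It had 159 reads in KO replicate 1 and 0 in KO replicate 2, against 70 in WT replicate 1 and 56 in WT replicate 2. KO replicate 2 was at least 44.5-fold lower than KO replicate 1 in normalized counts when its 0 is set to the floor of 3 reads, and the genotypes overlapped. The direction of the log2 fold change depended on that library and on the method: it was -2.34 in the limma fit of all 4 (adjusted p = 0.475), 0.28 in edgeR and 0.26 in DESeq2, and in limma 1.28 without KO replicate 2 (adjusted p = 0.0545) and -5.95 without KO replicate 1 (adjusted p = 0.00722). The fitted values depend on the pseudocount, since 1 library is at 0. H2-Eb2, a further class II beta chain gene below the minimum for testing, had 6 and 8 reads in KO and 1 read in each WT library.

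DM, which loads peptide onto class II molecules, is built from the products of H2-DMa and of H2-DMb1 or H2-DMb2, and these 3 genes rose. H2-DMa was at 1005 and 912 in KO and at 477 and 444 in WT (log2 fold change 1.06, SE 0.10, adjusted p = 0.00258). H2-DMb1 was at 448 and 424 in KO and at 180.3 and 237 in WT (1.07, SE 0.17, adjusted p = 0.0102), and H2-DMb2 at 282 and 249 in KO and at 124 and 84.7 in WT (1.36, SE 0.24, adjusted p = 0.0129). In each of these genes both KO libraries lay above both WT libraries. Calls were lost without WT replicate 2, with adjusted p = 0.0586 for H2-DMa, 0.057 for H2-DMb1 and 0.087 for H2-DMb2. Without WT replicate 1 the adjusted p values were 0.0632 for H2-DMb1 and 0.0541 for H2-DMb2, and without KO replicate 1 it was 0.0523 for H2-DMb2.

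The chains of DO, known mainly from B cells, did not pass. H2-Oa was at 11.2 and 15.6 in KO and at 22.4 and 22.3 in WT (log2 fold change -0.71, SE 0.34, adjusted p = 0.158), with the KO libraries below the WT libraries. H2-Ob was at 109.6 and 63.6 in KO and at 72.3 and 122 in WT (-0.17, SE 0.40, adjusted p = 0.755), and there the genotypes overlapped. Of 7 tested B cell markers 0 were called in either direction by limma, edgeR or DESeq2, and 0 had an unadjusted limma p under 0.05. The sums of all 8 listed B cell markers were 541 and 462 in KO and 296 and 586 in WT, with WT replicate 2 the highest as for H2-Ob.

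Cd74 rose. Its normalized counts were 25235 and 23881 in KO and 13137 and 12129 in WT, a log2 fold change of 0.96 (SE 0.09, adjusted p = 0.00305, and 0.0591 without WT replicate 2, the highest of the 14 alternatives). The genotypes were far apart relative to the spread within each. Ciita was at 616 and 464 in KO and at 279 and 272 in WT (log2 fold change 0.95, SE 0.17, adjusted p = 0.0129). Nlrc5 was at 1786 and 1389 in KO and at 887 and 844 in WT (0.86, SE 0.14, adjusted p = 0.0106). Both regulators rose, with KO replicate 1 the highest library and no overlap. Their calls were lost without WT replicate 1 (adjusted p = 0.118 for Ciita and 0.104 for Nlrc5) and without WT replicate 2 (0.138 for Ciita and 0.13 for Nlrc5).

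**Figure D2:**
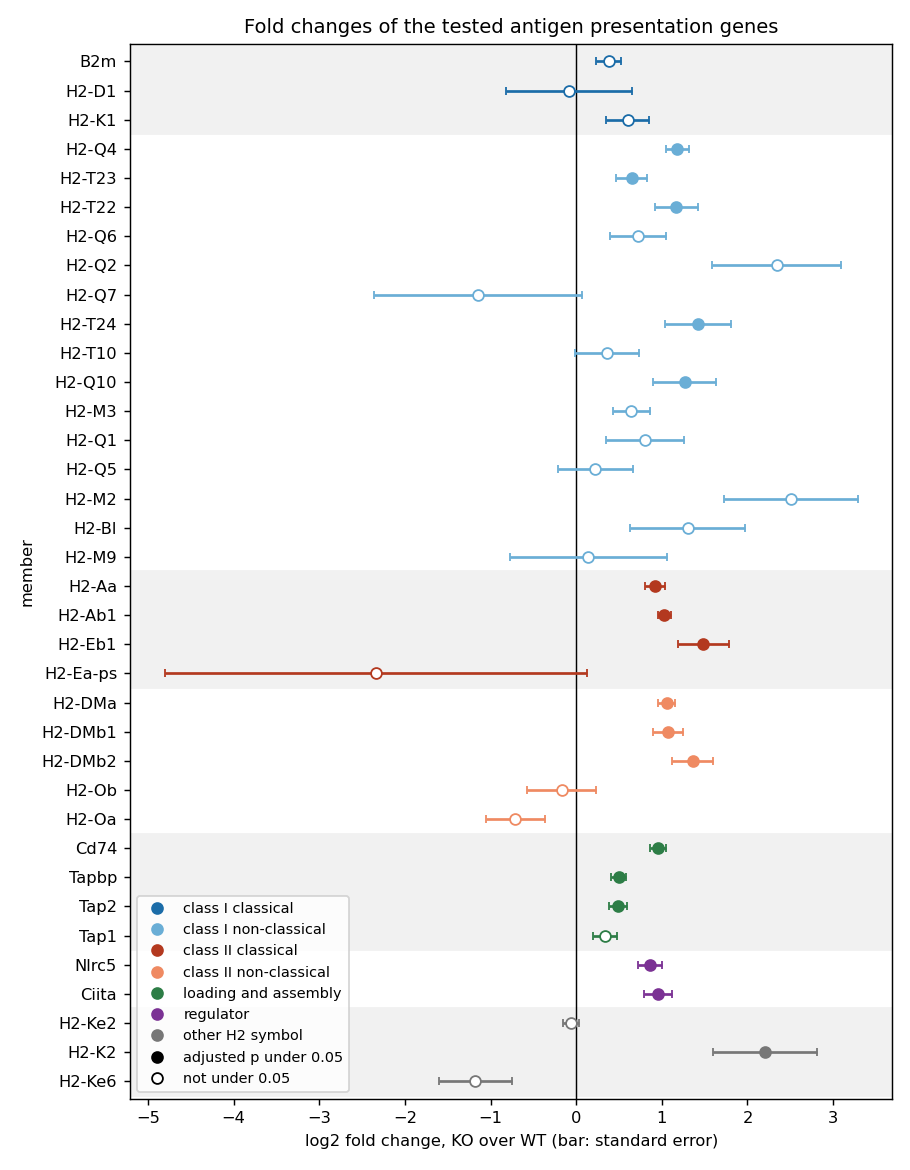
Log2 fold change of KO over WT (horizontal axis) for each tested member, with its standard error as a bar and filled points for an adjusted p under 0.05 in limma. The filled points of H2-Aa, H2-Ab1, H2-Eb1, the DM genes, Cd74, Ciita and Nlrc5 lie between 0.86 and 1.49, those of Tap2 and Tapbp near 0.50, and the longest bars belong to H2-Ea-ps (SE 2.47), H2-Q7 (1.22) and H2-M9 (0.92).

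The genes that fill class I molecules with peptide were higher in KO by less. Tapbp was at 9210.3 and 10340.3 in KO and at 7067 and 6757 in WT (log2 fold change 0.50, SE 0.09, adjusted p = 0.0135). Tap2 was at 2893 and 2565 in KO and at 2089.7 and 1809.6 in WT (0.49, SE 0.11, adjusted p = 0.0244). Both rose, with no overlap between genotypes. Tap1 was at 1326 and 1052 in KO and at 890.5 and 982 in WT and did not pass (0.34, SE 0.14, adjusted p = 0.113), though both KO libraries were the higher. Without KO replicate 2 the adjusted p was 0.0509 for Tapbp and 0.0441 for Tap1. The Tapbp call was also lost without WT replicate 1 (0.0913) and WT replicate 2 (0.121), and the Tap2 call without WT replicate 1 (0.0792), WT replicate 2 (0.149) and KO replicate 1 (0.0842).

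Of the classical class I molecule's 3 genes, 0 were called in limma, 0 had an unadjusted p under 0.05, 0 were called in edgeR and 2 in DESeq2. B2m was at 67402 and 63428 in KO and at 52148 and 48315 in WT. The KO libraries were the higher, with a log2 fold change of 0.38 (SE 0.15, 95% interval -0.01 to 0.78, adjusted p = 0.0984). DESeq2 gave B2m an adjusted p of 0.00127, within a range of 0.00127 to 0.346 over the 14 alternatives. H2-K1 was at 20929.9 and 15958 in KO and at 9851 and 14754 in WT (log2 fold change 0.60, SE 0.25, adjusted p = 0.116, and 0.0474 in DESeq2 within a range of 0.0474 to 0.412). Both KO libraries lay above both WT libraries, KO replicate 2 by little over WT replicate 2.

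H2-D1 was at 51591 and 11791 in KO and at 23159 and 29372 in WT. KO replicate 1 was the highest of the 4 libraries and KO replicate 2 the lowest, 4.38-fold apart, and the log2 fold change was -0.08 (SE 0.74, adjusted p = 0.936). It was 0.98 without KO replicate 2 (adjusted p = 0.0481) and -1.15 without KO replicate 1 (adjusted p = 0.0268), so that either direction passed the test with 1 KO library left out. Without KO replicate 1, H2-D1 and H2-Ea-ps were the 2 members called lower, where 20.6% of all genes were. Both edgeR and DESeq2 gave 0.26, and without WT replicate 2 it was 0.09. Summed over 29 class I heavy chain genes, with H2-K2, the level was 87662 and 43162 in KO and 40772 and 51876 in WT. This sum overlapped between genotypes as well, with KO replicate 2 between the WT libraries.

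Among the 26 non-classical class I genes 15 were tested and 5 rose, where 22.4% of all genes did, and the median log2 fold change of the 15 was 0.80. H2-Q4 was at 6268 and 5772 in KO and at 2993 and 2347 in WT (1.18, SE 0.14, adjusted p = 0.00454). H2-T22, known as a ligand of gamma delta T cells, was at 1314 and 2069 in KO and at 658 and 816 in WT (1.17, SE 0.25, adjusted p = 0.023). H2-T23, which encodes Qa-1, a ligand of receptors on natural killer cells, was at 1802 and 2457 in KO and at 1252 and 1443 in WT (0.65, SE 0.18, adjusted p = 0.0421). In each of these both KO libraries lay above both WT libraries. H2-T24 was at 451 and 725 in KO and at 285 and 158 in WT (1.42, SE 0.38, adjusted p = 0.04). H2-Q10, known as a secreted class I molecule of the liver, was at 492 and 429.6 in KO and at 271 and 134 in WT (1.27, SE 0.36, adjusted p = 0.048). Their KO libraries were the higher too, but the WT libraries were themselves apart, by 2.02-fold for H2-Q10.

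Of these 5 calls, 4 depended on the libraries. Calls were lost without WT replicate 1, with adjusted p = 0.182 for H2-T22, 0.248 for H2-T23 and 0.095 for H2-T24, and without WT replicate 2, with adjusted p = 0.145 for H2-T22, 0.183 for H2-T23, 0.217 for H2-T24 and 0.103 for H2-Q10. Without KO replicate 1 it was 0.146 for H2-Q10, and without KO replicate 2 it was 0.118 for H2-Q10, 0.0822 for H2-T23 and 0.134 for H2-T24. The call of H2-Q10 was also lost in edgeR (0.0603), with TMM scaling (0.0503) and with no filter on low values (0.0534), within a range of 0.00902 to 0.146 over the 14 alternatives.

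The other 10 tested non-classical genes did not pass. H2-M3, which presents N-formylated peptides, was at 442 and 314 in KO and at 218 and 261 in WT (log2 fold change 0.64, SE 0.22, adjusted p = 0.0709, and 0.0383 without KO replicate 2). H2-Q6 was at 1019 and 850.3 in KO and at 414 and 773 in WT (0.72, SE 0.33, adjusted p = 0.14). In both genes the KO libraries were the higher. H2-Q1 was at 520.0 and 242 in KO and at 257 and 160.0 in WT (0.80, SE 0.45, adjusted p = 0.209), H2-T10 at 536 and 266 in KO and at 327 and 264 in WT (0.36, SE 0.37, adjusted p = 0.466), and H2-Q5 at 95.6 and 99.3 in KO and at 55.0 and 126 in WT (0.22, SE 0.43, adjusted p = 0.695). In these 3 genes the genotypes overlapped, and H2-T10 was at 0.86 without KO replicate 2 (adjusted p = 0.0448) and at -0.15 without KO replicate 1.

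H2-Q7, which encodes the Qa-2 antigen, was at 727 and 84.8 in KO and at 292 and 1040.2 in WT. WT replicate 2 was its highest library and KO replicate 2 its lowest, with the KO libraries 8.57-fold apart and the WT libraries 3.56-fold (log2 fold change -1.14, SE 1.22, adjusted p = 0.478, and 0.40 without KO replicate 2). H2-M9 was at 78.7 and 12.3 in KO and at 26.5 and 30.7 in WT, with KO replicate 1 on top and KO replicate 2, as for H2-Q7, at the bottom. Its log2 fold change was 0.14 (SE 0.92, adjusted p = 0.911), with 1.43 without KO replicate 2 (adjusted p = 0.0458) and -1.15 without KO replicate 1 (adjusted p = 0.102).

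Another set of genes was low in WT replicate 2. H2-Q2 was at 764 and 1183 in KO and at 390.2 and 89.3 in WT (log2 fold change 2.34, SE 0.75, adjusted p = 0.0639). H2-M2 was at 62.8 and 93.7 in KO and at 27.5 and 5.58 in WT (2.50, SE 0.78, adjusted p = 0.0596). For both the KO libraries lay above the WT libraries, which were 4.37-fold apart for H2-Q2 and 4.93-fold for H2-M2. H2-Bl was at 49.7 and 61.4 in KO and at 41.8 and 11.2 in WT (1.30, SE 0.67, adjusted p = 0.178). The pseudogene H2-K2 was at 511 and 739.8 in KO and at 238 and 73.5 in WT, and it rose (2.20, SE 0.61, adjusted p = 0.043). WT replicate 2 was again the lowest library in both, and the H2-K2 call was lost in edgeR (0.055), without WT replicate 2 (0.117) and without either KO library (0.0878 without replicate 1 and 0.15 without replicate 2, the highest of the 14 alternatives). Without WT replicate 1, H2-Q2 and H2-M2 passed (adjusted p = 0.0483 and 0.0482), and H2-M2 also passed with a pseudocount of 5 (0.0465) and in DESeq2 (0.0253).

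The set also holds a pair of genes named for their place in the complex that do not encode MHC molecules. H2-Ke2, a prefoldin subunit, was at 725 and 819 in KO and at 802 and 805 in WT (log2 fold change -0.06, SE 0.09, adjusted p = 0.622), with overlap. H2-Ke6, a hydroxysteroid dehydrogenase, was at 18.7 and 15.6 in KO and at 28.5 and 55.8 in WT (-1.18, SE 0.43, adjusted p = 0.0851), with the KO libraries the lower. It shares 70.5% of its windows with an overlapping gene model. Below the minimum for testing, 10 members had 0 reads in all 4 libraries, where a count of 0 allows up to 3 reads each: H2-M10.1 to H2-M10.6, known from the vomeronasal organ, H2-M11 and the pseudogenes H2-Q3, H2-Pa and H2-Pb. H2-T3, H2-M1, H2-M5 and H2-M6-ps had 0 to 13 reads per library.

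The spread between libraries of one genotype was counted for all tested genes. On the log2(normalized count + 1) scale, 6 of 36 members (16.7%) differed by 1 or more between the KO libraries, against 6.93% of the other 16674 genes tested. These were H2-Ea-ps, H2-Q7, H2-M9, H2-D1, H2-Q1 and H2-T10, each higher in KO replicate 1. Between the WT libraries 7 of 36 (19.4%) differed by as much, against 4.46% of the other genes. H2-Q2, H2-M2, H2-Bl, H2-K2 and H2-Q10 were higher in WT replicate 1, and H2-Q7 and H2-Q5 in WT replicate 2. H2-Q7 was the member on both lists. The epithelial marker sum was also higher in KO replicate 1, at 3800.3 against 661 in KO replicate 2, and its part in the spread of the 6 members was not tested. B2m, Cd74, Ciita, Nlrc5 and Tapbp, the 5 members outside the span of the H2- genes, differed by less than 1 in both genotypes.

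**Figure D3:**
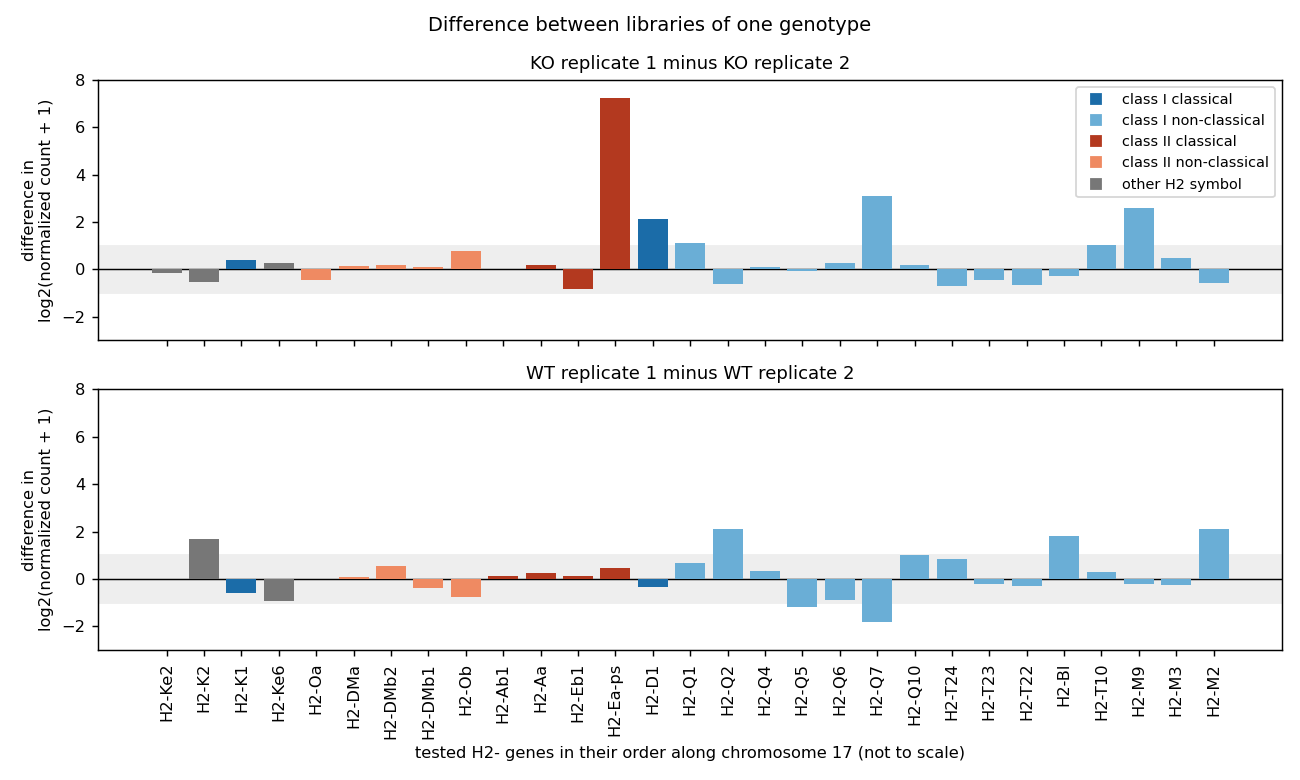
Difference in log2(normalized count + 1) between replicate 1 and replicate 2 of KO (upper panel) and of WT (lower panel) for the tested H2- genes, in their order along chromosome 17, with the range from -1 to 1 shaded. H2-Ea-ps (7.23), H2-Q7 (3.09), H2-M9 (2.59) and H2-D1 (2.13) stand out in KO and H2-Q2 and H2-M2 (2.11 each) in WT, while H2-DMa, H2-Ab1 and H2-Aa lie near 0 in both.

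The H2- genes span 33938821 to 37483552 of chromosome 17 (GRCm38). Of the 118 other genes tested within that span, 10 (8.47%) differed by 1 or more between the KO libraries and 12 between the WT libraries. Among these 118, 19 were called higher and 27 lower, where 22.4% and 24.4% of all genes tested were, and their median log2 fold change was -0.11. Of the 31 tested members in the span 13 were higher and 0 lower, with a median of 0.72. The labels give a mixed background but not the H2 haplotype of any library. H2 genes are among the most polymorphic in the mouse, the alignment genome comes from a single strain, and a short read from an unlike allele can fail to align or align to a related gene. Differences in allele, alignment and expression cannot be told apart in these values, and the part of allele differences in the levels of H2-D1, H2-Q7, H2-Q2, H2-M9, H2-Ea-ps and H2-Eb1 was not tested.

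Levels can be compared between genes only per length. Per kilobase of exon, mean normalized counts were 76064 in KO and 58409 in WT for B2m, 14627 in KO and 7524 in WT for Cd74, 12288 in KO and 10184 in WT for H2-D1, and 6278 in KO and 4187 in WT for H2-K1. By the KO means the class II chains came next, with 3869 in KO and 2050.2 in WT for H2-Aa, 3627 in KO and 1243 in WT for H2-Eb1, and 3205 in KO and 1572 in WT for H2-Ab1. By the WT means H2-Aa came next too, but Tapbp, at 1905, lay above H2-Ab1 and H2-Eb1. The KO means of H2-D1 and H2-Eb1 pool unlike libraries. H2-D1 was at 20004 in KO replicate 1 and at 4572 in KO replicate 2, where it lay below H2-K1 at 5432 and H2-Eb1 at 4654. H2-Eb1 was at 2600.3 in KO replicate 1, the lowest of the 3 class II chains there, and was the highest of them in KO replicate 2. Tapbp was at 2694 in KO and 1905 in WT, H2-Q4, the most abundant non-classical heavy chain, at 2319 in KO and 1029 in WT, and H2-T23, the next, at 737 in KO and 466 in WT. Nlrc5, at 187 in KO and 102 in WT, and Ciita, at 56.6 in KO and 28.9 in WT, were far lower.

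Most macrophage and dendritic cell markers were higher in KO together with the class II genes, whereas the B cell markers given above were not called. Over all genes tested, 22.4% were called higher and 24.4% lower. Of 12 macrophage markers 10 rose and 0 fell (median log2 fold change 1.04), with sums of 62047 and 57809 in KO and 29816 and 28728 in WT. Csf1r, the receptor that macrophages need to live, was at 7803 and 7225 in KO and at 3779 and 3533 in WT. Of 10 dendritic cell markers 6 rose and 0 fell (median 1.01), with sums of 3933 and 4206 in KO and 2035 and 1805 in WT. Zbtb46, a transcription factor of classical dendritic cells, was at 1326 and 1148 in KO and at 556 and 571 in WT. Clec9a, named after its value was seen, was at 91.8 and 70.3 in KO and at 122 and 131 in WT. Its KO libraries were the lower, and it did not pass (log2 fold change -0.65, adjusted p = 0.0662). Flt3 and Xcr1, named likewise, did not pass either (log2 fold changes -0.16 and 0.14). No marker of either list was at 0. Of 10 T and NK cell markers only Cd2 was called, higher (log2 fold change 1.17), with a median of 0.31 and sums of 784 and 769.9 in KO and 545 and 649 in WT.

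Of 8 pan-leukocyte markers 6 rose and 1, Cd52, fell. Cd52, which the epididymis is also known to make in quantity, was at 538 and 616 in KO and at 36248 and 45066 in WT. The sum of the whole list was 14003 and 13374 in KO and 42723 and 51881 in WT, lower in KO. Without Cd52, left out after its value was seen, it was 13465 and 12758 in KO and 6475 and 6815 in WT, higher in KO. Endothelial markers (6 of 8 higher, median 0.71) moved the same way. The sum of H2-Aa, H2-Ab1, H2-Eb1 and Cd74 was 54082 and 54987 in KO and 28318 and 25425 in WT. Divided by the macrophage sum it was 0.872 and 0.951 in KO and 0.950 and 0.885 in WT, and divided by the dendritic cell sum 13.7 and 13.1 in KO and 13.9 and 14.1 in WT. Over the pan-leukocyte sum without Cd52 it was 4.02 and 4.31 in KO and 4.37 and 3.73 in WT. The genotypes overlapped in the ratios to the macrophage and pan-leukocyte sums, and in the ratio to the dendritic cell sum the KO libraries were slightly the lower. The part of these markers' shift in the levels of the class II genes was not tested.

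**Figure D4:**
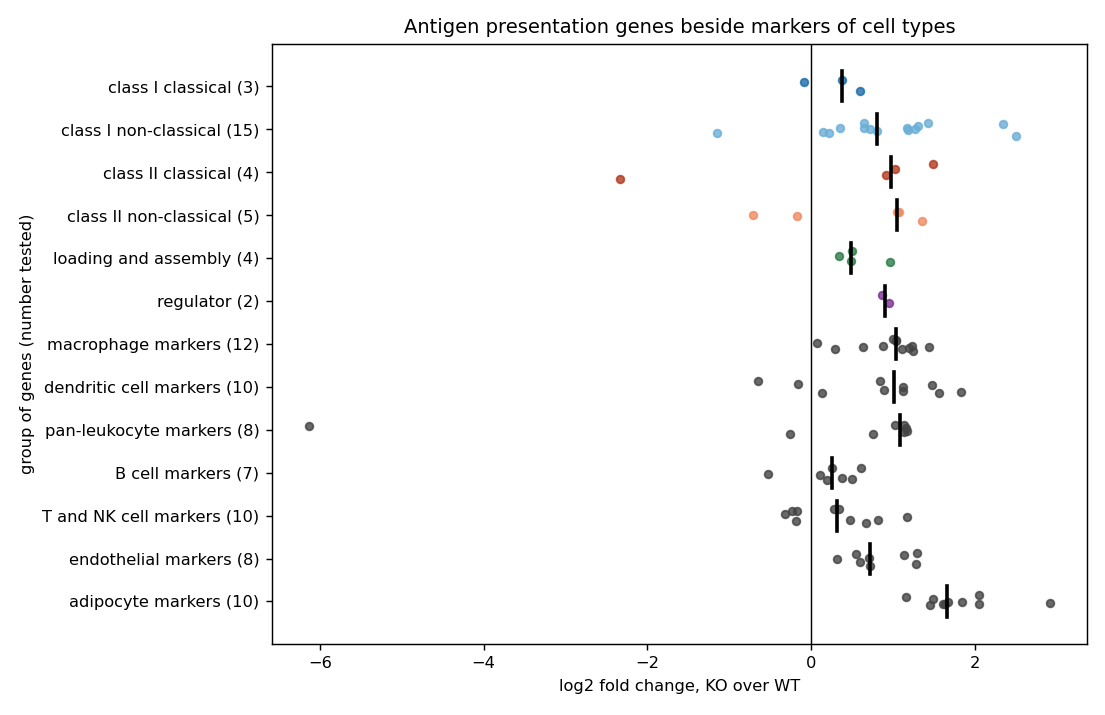
Log2 fold change of KO over WT (horizontal axis) of each tested gene, 1 point per gene, in classes of antigen presentation genes and in marker lists of cell types, with the median of each as a black bar. The medians of the class II classes (0.97 and 1.06) lie beside those of macrophage (1.04), dendritic cell (1.01) and pan-leukocyte (1.08) markers, and B cell markers have a median of 0.26.

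Other genes of the pathway were read from lists. Beside the counts in each list below stand the shares over all genes tested, 22.4% called higher and 24.4% lower. The 5 genes of the immunoproteasome and its activator, which cut proteins into class I peptides, all rose, by a median of 0.72 on the log2 scale. The catalytic subunits Psmb8, at 1887 and 1519.8 in KO and at 1026 and 1033 in WT, and Psmb9, at 936 and 769 in KO and at 482 and 534 in WT, showed no overlap. Psmb10 rose by 0.72 and Psme2 by 0.41 on the log2 scale. Among 6 chaperones and peptide-trimming enzymes of the endoplasmic reticulum, Erap1 (0.34) and Tapbpl (0.35) rose, and the chaperones Canx (-0.88) and Hspa5 (-0.48) fell. Epithelial markers were lower in KO as well (8 of 8, median -7.36), and their part in the levels of Canx and Hspa5 was not tested.

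The endosomal side of the class II route had 6 of 9 genes higher and 0 lower, with a median of 1.01. Ctss, the cathepsin that trims the invariant chain, was at 3912 and 4119 in KO and at 1651 and 1622 in WT (log2 fold change 1.29, SE 0.06, adjusted p = 0.000835). March1, a ubiquitin ligase that removes class II molecules from the surface, was at 463 and 461 in KO and at 228.2 and 227.9 in WT (1.01, SE 0.10, adjusted p = 0.0031). For both, the libraries of each genotype were nearly equal. Unc93b1, which carries Toll-like receptors to endosomes, rose by 0.97 and the protease Ctsb by 1.57 on the log2 scale.

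Factors that bind MHC promoters or act on their regulators went both ways, with 7 of 14 higher, 3 lower and a median of 0.25. Spi1, a factor of myeloid cells and B cells, was at 718 and 745 in KO and at 315 in each WT library (log2 fold change 1.21). Irf1 was at 2820.3 and 2430.3 in KO and at 1667 and 1638 in WT (0.66), and Irf8, which is also among the dendritic cell markers, rose by 0.85. The 3 that fell, of which Rfx5 and Nfyc were chosen for naming after their values were seen, were Nfyb (-0.59), Rfx5 (-0.51) and Nfyc (-0.38). Nfyb and Nfyc are subunits of NF-Y, the factor that binds the Y box printed above, and its further subunit Nfya rose (0.34, adjusted p = 0.0389). Rfx5 belongs to the RFX complex that binds beside it, of which Rfxap rose (0.31, adjusted p = 0.0492) and Rfxank did not pass (-0.12). The subunits of each complex thus did not move one way, and Nfya, Rfxap and Rfxank were also chosen for naming after their values were seen.

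Interferon gamma, a main inducer of Ciita, acts through a receptor and a set of response genes. In this list 9 of 14 tested rose and 1, Jak2, fell (median 0.49), where 22.4% of all genes rose and 24.4% fell. Ifng, the gene of the interferon itself, was below the minimum for testing. Cxcl9 was at 1155 and 1323 in KO and at 403 and 309.8 in WT. Gbp4 was at 2611 and 2151 in KO and at 866 and 1090.4 in WT (log2 fold change 1.29). In both genes the genotypes did not overlap. Gbp7 rose by 0.67 and the receptor chain Ifngr2 by 0.77, whereas Jak2, a kinase of that receptor named after its value was seen, was at -0.71. Cxcl10 (-0.51), Socs1 (-0.49) and Irgm1 (-0.17), named likewise, were below 0 and did not pass.

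MHC-like genes outside the complex went both ways. Cd1d1, which presents lipids, was at 14409.5 and 15966 in KO and at 3163 and 2457 in WT (log2 fold change 2.44, SE 0.15, adjusted p = 0.00116). Azgp1, a secreted relative of class I, was at 0.94 and 3.35 in KO and at 278 and 472 in WT, and it fell (adjusted p = 0.00187). Both KO values were no higher than what 3 reads are worth, and markers of the epididymis (median -11.50) and of epithelium (median -7.36) fell too, whose part in its level was not tested. Fcgrt, the neonatal Fc receptor, rose by 1.16 and Hfe, a regulator of iron uptake, by 1.93. In this list 3 of 8 tested were higher and 1 lower, where 22.4% and 24.4% of all genes were. Cd1d1 is also known from adipocytes, whose markers were higher in KO by a median of 1.66, and their part in its level was not tested.

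Co-stimulatory genes, which accompany peptide display, had 2 of 5 tested higher and 0 lower, where 22.4% of all genes were higher and 24.4% lower. Cd80 was at 83.4 and 69.2 in KO and at 38.7 and 22.3 in WT (log2 fold change 1.34, SE 0.35, adjusted p = 0.0381), and Icosl rose by 0.44. Cd274 was at 1104 and 1682 in KO and at 839.5 and 501 in WT and did not pass (adjusted p = 0.0583). The KO libraries were the higher in all 3.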

How the data were processed

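Per the labels' protocols, Trizol-extracted total RNA was purified on columns and made into single-read libraries of 50 cycles with a TruSeq RNA kit. DESeq2 1.4.5, HTSeq 0.5.3, TopHat2 2.0.10 and CASAVA 1.8 are named, with build GRCm38, per the submitters' processing notes. The sources used here do not give the strand setting, so overlapping antisense genes cannot be told apart. The authors deposited a normalized count (a signal per gene, reads divided by a size factor of 0.8962 to 1.0748) and, for their own comparison, p-values, a test score and log2 fold changes. Dividing by the value of a single read gave whole reads for 100% of values within 0.01. The floor of 3 reads for a count of 0 covers counting error only, and intervals of fold changes come from the spread between libraries in limma.

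The main test was limma 3.58.1 (R 4.3.3, intensity trend, prior degrees of freedom 2.36) on log2(normalized count + 1) for genes averaging 10 or more, two-sided, with Benjamini-Hochberg adjustment over 16710 genes and a threshold of 0.05. Fold changes of low genes are understated on that scale. Alternatives changed the pseudocount, filter, scaling, moderation, replicate block or libraries, or used edgeR 4.0.16 or DESeq2 1.42.0 on the recovered reads. Libraries of a genotype differed beyond sampling noise (chi-square per degree of freedom 36.8 in KO and 52.3 in WT). Exon lengths and coordinates came from GENCODE M21, which held all 51 members. All tested members are named, with the 4 genes of smallest p per list at most, and any exception is stated beside it. The members and lists were chosen with earlier results of these data known.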

Additional observations from a re-analysis of the deposited data

How the results depend on the processing

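Over the fits with 1 library left out, members called higher ranged from 2 to 17, against 17 with all 4 libraries, and members called lower from 0 to 2 (H2-D1 and H2-Ea-ps without KO replicate 1). All genes called higher ranged from 524 to 2846, against 3735, and all genes called lower from 1061 to 3434, against 4074. With all 4 libraries kept, the other 10 settings called 15 to 20 members higher and 0 lower. The log2 fold change of H2-D1 was -0.08, but 0.26 in edgeR and 0.26 in DESeq2, and that of H2-Ea-ps was -2.34, but 0.28 in edgeR and 0.26 in DESeq2. With 1 library left out, values crossed 0 for 8 uncalled members: H2-D1 (-1.15 to 0.98), H2-Ea-ps (-5.95 to 1.28), H2-Ke2 (-0.15 to 0.03), H2-M9 (-1.15 to 1.43), H2-Ob (-0.56 to 0.22), H2-Q5 (-0.36 to 0.81), H2-Q7 (-2.69 to 0.40) and H2-T10 (-0.15 to 0.86). Each fit with 1 library left out has fewer degrees of freedom than the fit of all 4 libraries. The part of this in the changed calls was not tested.

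Same-numbered KO and WT libraries share only a number: their deviations correlated at -0.009 over 16710 genes. With the replicate number as a block, 16 members were called higher, 0 lower, and 2737 genes higher and 3339 lower in all. H2-K2 (adjusted p = 0.0677) and H2-T24 (0.0802) lost their calls and H2-Q1 gained one (0.0433).

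The limits are 2 libraries a genotype, unequal tissue content and unknown H2 haplotypes.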
